A study of Mus musculus with 50 samples.

Results

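The 62 probe identifiers followed here were higher in the macrophage segment than in the non-immune segment of an unexposed mouse lung, and their levels were traced through 3 ozone-exposed lungs. They were chosen among 20238 identifiers by 2 criteria applied to the air section. One was a summed count of 80 or more over its 8 segments, and the other a higher CPM (counts per 1e6 counts of the segment) in the CD68+ than in the CD45- segment of all 4 air regions. Of 246 identifiers at or above the count floor, 73 met both criteria, and 11 of these were on a list of identifiers left out by the rule. The air values therefore describe the choice and support nothing. The 164 other identifiers at or above the floor that were not on the list and missed the second criterion serve as a comparison. They share the floor but were not matched to the members by abundance. Missing the second criterion also chose them on the segment difference in air. Just inside the floor were RTS0068138 and RTS0075938 with 81 air counts each, and just outside it were RTS0075699 with 79 and RTS0062519 with 78.

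CD68 is a lysosomal membrane glycoprotein that is abundant in macrophages, and CD45 is a surface phosphatase carried by leukocytes. Alveolar macrophages sit in the airspaces, where they clear particles, dying cells and spent surfactant, and inhaled ozone is known to damage the lining epithelium and to be followed by a change in the number and state of these macrophages. Surfactant protein C (SP-C) is made by alveolar type 2 cells, and the SP-CI73T mutant form is misrouted in those cells.

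The study captured probe barcodes from 4 mouse lung sections with GeoMx digital spatial profiling, 1 section for each condition. The exposed sections came from an SP-C wild type mouse of 12 weeks, an SP-CI73T mutant mouse of 12 weeks and an SP-CI73T mutant mouse of 80 weeks, all taken 72 h after 3 h of whole-body ozone at 0.8 ppm. The control was an SP-C wild type mouse of 12 weeks kept in filtered air, and all animals were housed in a germ free facility. From the wild type ozone section came 4 injured and 4 peri-injured regions, from each mutant section 3 of each, and from the air section 4 regions called healthy. In every region a segment positive for both CD45 and CD68, called CD68+ here, and a CD45- segment were collected, 48 segments in all. Which promoter or allele carries the mutation, and how regions were judged injured, the sources used here do not say. The air samples carry a treatment tag that names ozone, but their titles, which were followed here, and their time point call them air. Genotype and collection plate changed together, per the file headers, and cannot be told apart.

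CD68+ segments held 20046 to 101982 counts and CD45- segments 32707 to 300720. Regions of 1 section carry 1 study identifier and were taken to share an animal, so p-values below rest on 3 sections, and with 1 animal per condition no test between conditions was possible. The identifiers are not paired with gene names in the files or in the reference tables, where 0 of the 62 were found. No gene, sequence or marker of a cell type is therefore named, and the macrophage content of the CD68+ segments rests on the stain and was not checked. In a captured segment, fewer cells of a type and less RNA per cell cannot be told apart.

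After ozone the members together took a higher share of counts in CD68+ than in CD45- segments. The summed share of counts on the 62 members was higher in the CD68+ than in the CD45- segment in 8 of 8 wild type, 6 of 6 young mutant and 6 of 6 old mutant ozone regions. For the 27 members of the consecutive identifier run described below, this held in 8 of 8, 5 of 6 and 4 of 6 regions, and for the 35 others in 8 of 8, 6 of 6 and 6 of 6. In wild type ozone regions it was 5.19 ± 0.40% of counts in CD68+ and 3.40 ± 0.40% in CD45- segments (SD, n = 8). In young mutant regions it was 4.80 ± 0.60% in CD68+ and 3.41 ± 0.81% in CD45- segments (SD, n = 6). In old mutant regions it was 4.70 ± 0.71% in CD68+ and 4.08 ± 0.74% in CD45- segments (SD, n = 6). The air regions that chose the members held 4.34 ± 0.40% in CD68+ and 2.29 ± 0.10% in CD45- segments (SD, n = 4). In the old mutant section the shares came closest in injured region 8, with 4.85% in CD68+ and 4.77% in CD45-, and in region 7, a peri-injured one, with 4.93% and 4.78%.

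**Figure D1:**
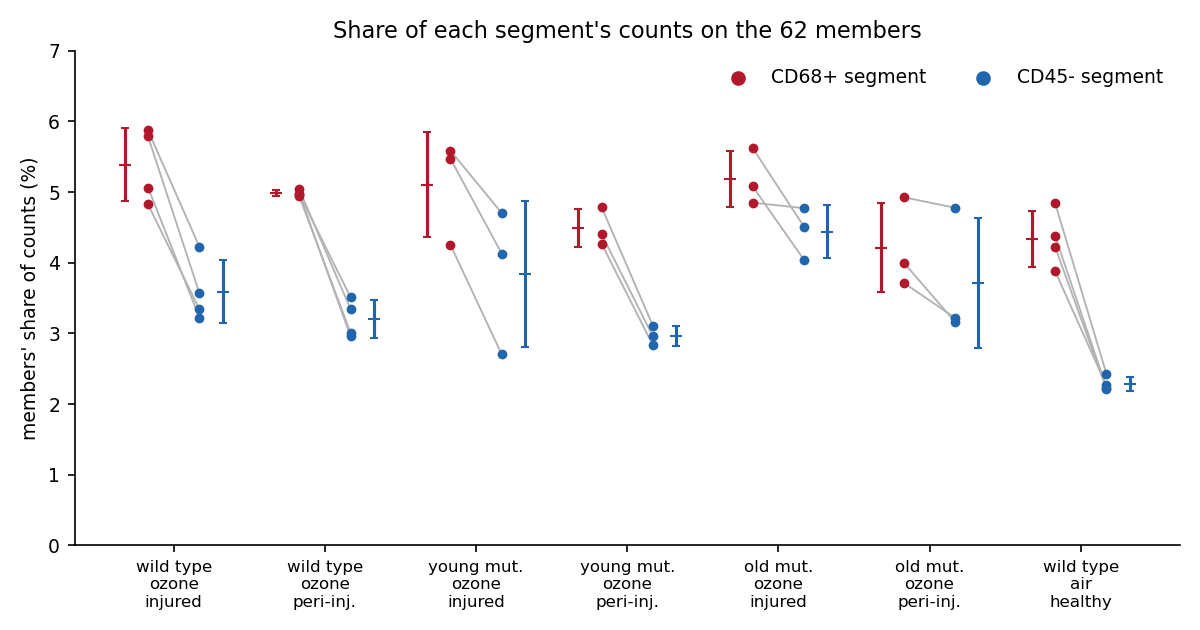
Share of each segment's counts that fell on the 62 members, in percent, for every region. Red points are CD68+ and blue points CD45- segments of 7 groups, grey lines join both segments of a region, and bars give the mean and SD. The CD68+ point is the higher in all 24 regions, by least in regions 8 and 7 of the old mutant section.

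Tested over the 3 ozone sections, 12 of the 62 members were higher in CD68+ segments and 0 lower at an edgeR adjusted p under 0.05, where 1.43% of the 17651 identifiers tested were higher and 0.686% lower. Of the 164 comparison identifiers 2 were higher and 18 lower. The median log2 fold change of the members was 0.31, against 0.00 for all identifiers tested, and 57 members had a positive value. RTS0074750 and RTS0063697 had the largest differences. The other 10 that passed had log2 fold changes of 0.57 to 1.32. Without the wild type ozone section 1 member passed, RTS0074750, and without segments under 50000 counts 4 passed. Higher calls over all identifiers fell too, from 252 of 17651 to 24 of 16390 and 119 of 16256. With each region as a library, 11 members were higher and 2 lower with section as block, and 14 higher and 2 lower with region as block. The lower ones were RTS0067712 and RTS0075738, named after their values were seen. In these region fits 208 and 205 of the 17651 identifiers tested were higher, and 665 and 616 lower. The median of all identifiers was -0.22 and -0.23, against member medians of 0.10 and 0.10, and regions of 1 animal are taken as replicates.

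RTS0074750 stood out in CD68+ segments of every ozone section. Its CPM in CD68+ segments of wild type injured regions was 3174, 3306, 3926 and 3969, and in peri-injured regions 1399, 1646, 1734 and 1934. The CD45- segments of the same section held 264.6 to 522.1 CPM, so the segments did not overlap. In young mutant regions the CD68+ segments held 1049 to 4310 CPM with a median of 1471, and the CD45- segments 268.6 to 453.6 CPM with a median of 380.5. In the old mutant section CD68+ segments held 454.4 to 2070 CPM with a median of 864.4, and CD45- segments 238.5 to 432.7 CPM with a median of 390.0. The segments overlapped in none of the 3 sections, and the old mutant section had the lowest CD68+ levels. CD68+ over CD45-, its log2 fold change reached 2.21 (SE 0.20, edgeR adjusted p = 3.62e-09), a 4.63-fold difference with the same direction in 20 of 20 regions, and it passed in 32 of 32 alternatives.

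RTS0063697 was the second. In wild type ozone regions its CPM ran from 663.1 to 1173 with a median of 896.4 in CD68+ segments, and from 177.4 to 276.1 with a median of 239.6 in CD45- segments. Young mutant regions held 612.5 to 1833 CPM with a median of 933.0 in CD68+ and 169.1 to 513.1 CPM with a median of 262.8 in CD45- segments. Old mutant regions held 571.6 to 865.3 CPM in CD68+ and 306.7 to 552.4 CPM in CD45- segments, without overlap. The fitted log2 difference was 1.50 (SE 0.20, edgeR adjusted p = 4.87e-06), with a higher CD68+ value in 20 of 20 regions. Without the wild type ozone section it was 1.22 and missed the threshold (edgeR adjusted p = 0.162). Over its alternatives the edgeR or DESeq2 adjusted p ran between 3.03e-27 and 0.162.

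The 2 members with most counts in ozone CD68+ segments were RTS0070220 and RTS0080807. RTS0070220 averaged 5872 ± 1569 CPM in CD68+ segments of the wild type ozone section, against 3276 ± 299.7 CPM in its CD45- segments (SD, n = 8), and the difference was 0.57 on the log2 scale (SE 0.15, edgeR adjusted p = 0.0338). It was higher in the CD68+ segment in 20 of 20 regions, and the adjusted p passed in 17 of 32 alternatives. RTS0080807 averaged 3890 ± 538.6 CPM in the CD68+ segments there, against 1887 ± 280.5 CPM in the CD45- segments (SD, n = 8). In the old mutant section it averaged 3670 ± 943.6 CPM in CD68+ segments, against 3482 ± 1036 CPM in CD45- segments (SD, n = 6). Over the sections its difference of 0.56 did not pass (SE 0.16, edgeR adjusted p = 0.0672). Of the pair just inside the count floor, RTS0075938 passed at 0.74 (SE 0.18, edgeR adjusted p = 0.0182) and RTS0068138 had 0.57 (SE 0.18, edgeR adjusted p = 0.102).

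**Figure D2:**
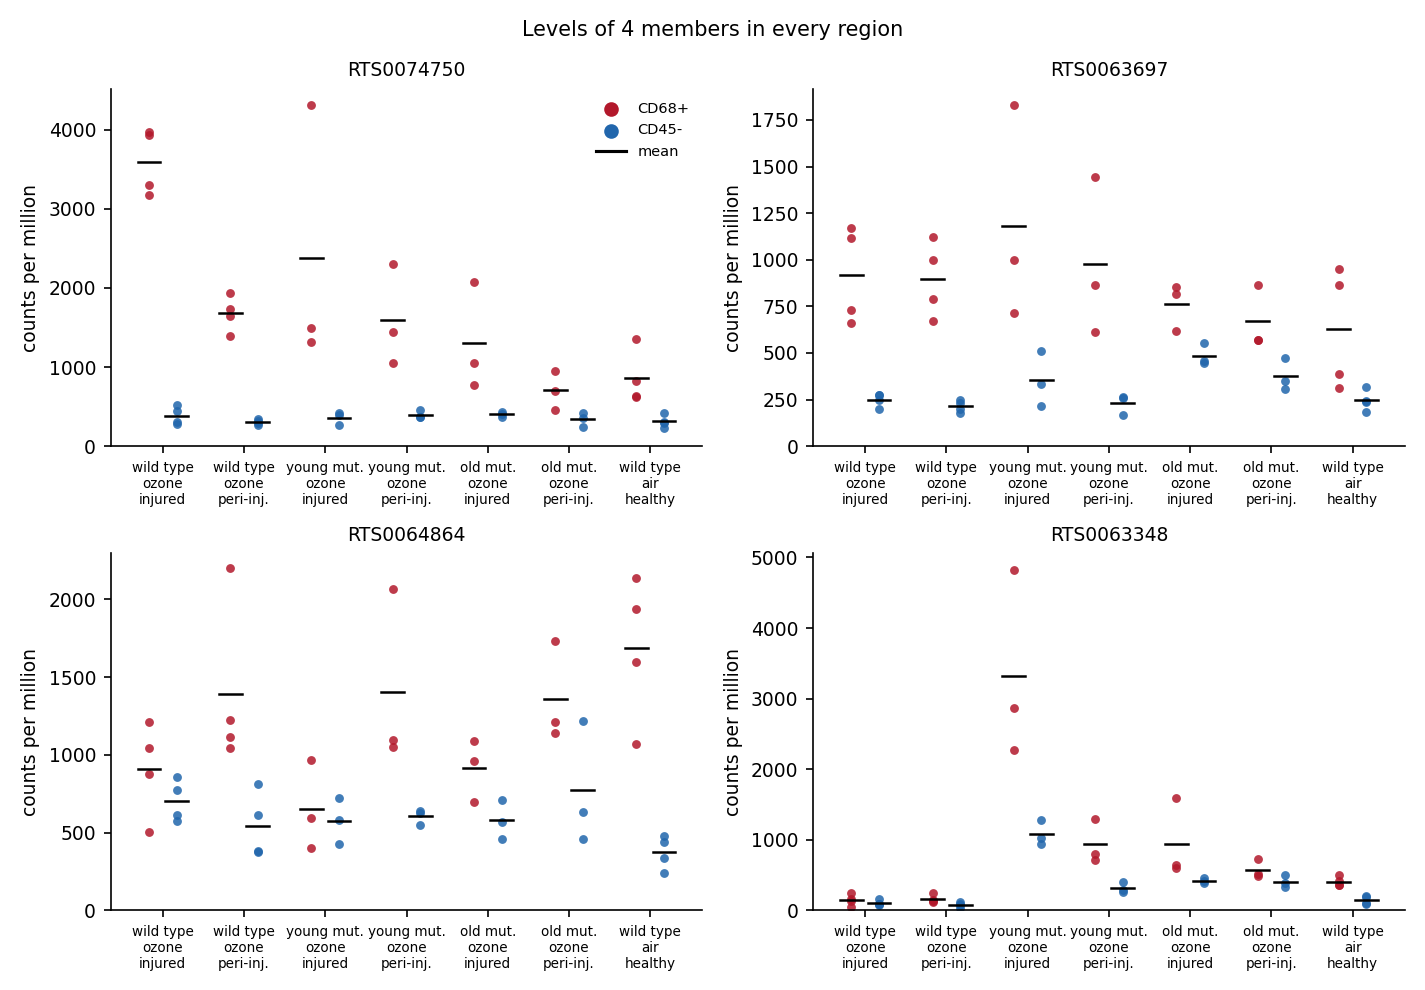
CPM of 4 members in every region, with CD68+ segments in red, CD45- segments in blue and group means as black lines. RTS0074750 is higher in CD68+ in every ozone section, and RTS0063348 reaches 4820 CPM in a young mutant injured region against at most 249.9 CPM in wild type ozone CD68+ segments.

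The segment difference was not the same size in each section. With counts summed per section, the median log2 difference of the members was 0.34 in the wild type ozone, 0.27 in the young mutant and 0.08 in the old mutant section, beside 0.74 in air, where the rule fixed its sign and, by choosing on it, its size, so the ozone values are not to be read against it. For the 164 comparison identifiers it was -0.16, -0.10, -0.03 and -0.05. The members with a positive difference numbered 52, 53 and 40 of 62 in the ozone sections, and 35 were positive in all 3. In the wild type section 17 of 62 members were higher in CD68+ in all 8 regions, where 1.25% of identifiers tested and 3.05% of the comparison identifiers were. In the young mutant section 14 were higher in all 6 regions (1.09% of identifiers tested, 5.49% of comparison identifiers), and in the old mutant section 11 (1.42% and 3.05%). The lower median of the old mutant section is a description of 1 animal. As a share of the area captured in a region, the CD68+ segment had a median of 25.8% in wild type ozone, 12.4% in young mutant, 28.9% in old mutant and 39.1% in air regions. Its part in the differences was not tested.

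Only 3 members were higher in CD68+ segments in all 20 ozone regions, RTS0074750, RTS0063697 and RTS0070220, where 0.136% of identifiers tested were. At the other end RTS0071365 and RTS0075738, named after their values were seen, were higher in 5 of 20 regions. The median over the members was 14.5 of 20 regions, against 8 for the comparison identifiers.

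The members were not spread evenly over the identifier numbers. A consecutive run from RTS0075695 to RTS0075783 holds 84 identifiers, of which 59.5% reached the count floor in air against 1.22% of all identifiers, and 27 of the 62 members lie in it. This division was made after the values were seen, and what the run contains is not annotated in the files. In the segment comparison 0 of the 27 run members and 12 of the 35 others passed, although 25 and 32 had a positive log2 fold change. The medians were 0.24 in the run and 0.42 outside it, and by unadjusted p under 0.05 edgeR counted 5 and 21, all higher. By the same measure it counted 1821 of the 17651 tested (991 higher) and 39 of the 164 comparison identifiers (9 higher). The ratio of the highest to the lowest section mean CPM in CD68+ segments had a median of 1.18 and a maximum of 1.63 in the run, against a median of 1.36 and a maximum of 13.7 outside it. All 9 members with a ratio above 2 lay outside the run. In CD45- segments, over the 20 ozone segments, as deviations from group means on 1 common scaling, the median pairwise Pearson correlation was 0.32 in the run and 0.20 outside it, against 0.02 among the comparison identifiers. In the shallower CD68+ segments these medians were 0.03, 0.02 and 0.03.

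**Figure D3:**
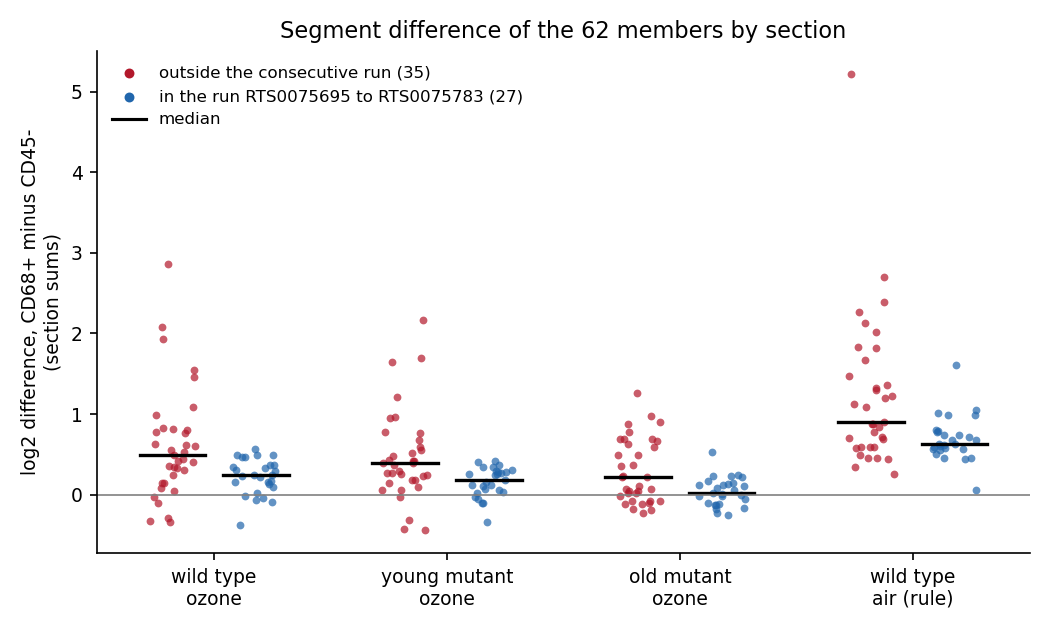
Log2 difference between CD68+ and CD45- segments for each member, from counts summed per section. Red points are the 35 members outside the consecutive run, blue points the 27 inside it, and black lines the medians, which are 0.22 outside and 0.02 inside the run in the old mutant section. In air the differences are above 0 by the rule.

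Within each segment type, injured regions were set against the peri-injured ones from the same ozone-exposed lungs. In CD68+ segments 2 members passed, 1 in each direction. Of 61 members tested, 1 was higher and 1 lower at an edgeR adjusted p under 0.05, where 0.283% of the 3176 identifiers tested were higher and 0.252% lower. Of the 162 comparison identifiers tested 0 were higher and 2 lower. The median log2 fold change was 0.26 for the members, 0.01 for all tested and 0.04 for the comparison identifiers, and 48 members had a positive value, 26 of 27 in the run and 22 of 34 outside it. By section the member median was 0.02 in wild type, 0.18 in young mutant and 0.35 in old mutant CD68+ segments, with 39, 43 and 51 of 62 positive. The comparison identifiers had medians of -0.08, -0.06 and 0.09 there, with 65, 73 and 99 of 164 positive, so they too were highest in the old mutant section. Only 28 members were positive in all 3 sections and 8 were negative in all 3. RTS0074750 was higher in injured regions at 0.78 (SE 0.17, edgeR adjusted p = 0.0159). In the wild type section all 4 injured regions exceeded all 4 peri-injured ones. In the young mutant section the injured regions held 1318, 1496 and 4310 CPM and the peri-injured ones 1049, 1447 and 2297 CPM, while old mutant injured regions held 774.6, 1049 and 2070 CPM against 454.4, 703.8 and 954.1 CPM, with overlap in both mutant sections. RTS0064864 was lower at -0.69 (SE 0.16, edgeR adjusted p = 0.0395). In wild type injured regions it held 505.2, 879.6, 1047 and 1211 CPM and in peri-injured ones 1042, 1115, 1224 and 2198 CPM, which overlapped. Young mutant injured regions held 403.6, 594.4 and 967.4 CPM and peri-injured ones 1049, 1097 and 2067 CPM, while old mutant injured regions held 698.7, 961.0 and 1088 CPM against 1143, 1210 and 1731 CPM, without overlap in either. RTS0074750 passed in 11 and RTS0064864 in 9 of 29 alternatives, and both calls were lost without the wild type or without the old mutant section. The call of RTS0064864 was lost without the young mutant section too. DESeq2 called 0 members. At an unadjusted p under 0.05 it had 2 members, as 22 of the 3176 tested, and edgeR 22 members, as 227 of the 3176. Leaving out 1 region at a time gave 0 to 5 calls. Over all identifiers tested, 1 to 18 were then higher and 0 to 16 lower.

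In CD45- segments more members passed, all of them higher in injured regions. Of 62 members 8 were higher and 0 lower at an edgeR adjusted p under 0.05, where 0.204% of the 16703 identifiers tested were higher and 0.144% lower. Of the 164 comparison identifiers 4 were higher and 2 lower. The median log2 fold change was 0.32 for the members, 0.00 for all tested and 0.09 for the comparison identifiers. Positive values were held by 56 members, 27 of 27 in the run and 29 of 35 outside it. Of the comparison identifiers 115 of 164 were positive. Those in the run were all positive too, from 0.04 (RTS0075708) to 0.46 (RTS0075762), so this is not particular to the members. By unadjusted p under 0.05 there were 39 members, all higher, where 1037 of the 16703 tested (592 higher) and 42 of the 164 comparison identifiers (37 higher) were. DESeq2 called 0 members (9 at an unadjusted p under 0.05, as 61 of the 16703 tested). The member count was 16 without the wild type section, 3 without the young mutant section and 4 without the old mutant section. Over all identifiers tested, 105 of 15103, 30 of 15006 and 41 of 17434 were then higher. The member count was 2 without region 2 (injured) or 5 (peri-injured) from the wild type lung, region 3 (injured) or 4 (peri-injured) from the young mutant lung, or region 11 (peri-injured) from the old mutant lung. Higher calls over all identifiers fell too, to 18 of 16799, 12 of 14677, 13 of 15941, 10 of 14641 and 13 of 16690, in that order. Summed CD45- counts were 775175 in injured and 436834 in peri-injured regions of the wild type section, 473933 and 441091 in the young mutant and 338677 and 206282 in the old mutant section, and the part of this depth gap was not tested.

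RTS0075924 and RTS0068401 had the largest injury differences in CD45- segments. RTS0075924 held 582.9, 609.8, 646.0 and 768.2 CPM in injured and 465.7, 483.7, 574.5 and 623.6 CPM in peri-injured regions of the wild type section. In the young mutant section it held 429.7, 809.7 and 1169 CPM in injured and 308.8, 311.8 and 391.5 CPM in peri-injured regions, while injured old mutant regions held 884.4, 994.3 and 1109 CPM against 295.3, 387.1 and 879.2 CPM. The groups overlapped in the wild type section and did not in the mutant sections. Injured over peri-injured, the fitted log2 difference was 0.94 (SE 0.16, edgeR adjusted p = 0.000996). RTS0068401 held 526.4, 564.5, 651.4 and 834.7 CPM in injured and 278.8, 349.6, 475.4 and 547.6 CPM in peri-injured regions of the wild type section, with a narrow overlap. Young mutant regions held 134.3, 513.3 and 608.1 CPM when injured and 257.3, 276.0 and 330.7 CPM when peri-injured, and old mutant regions 603.4, 708.9 and 981.0 CPM against 272.6, 334.3 and 455.9 CPM. Only the old mutant section was free of overlap. Here the fitted log2 difference was 0.92 (SE 0.14, edgeR adjusted p = 0.000407). Each passed in 28 of 29 alternatives, the exception being DESeq2. The other 6 that passed had log2 fold changes of 0.56 to 0.89.

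An interaction term asked if a member's injury difference was larger in one segment type. In edgeR 0 of the 62 members passed, where 0.0429% of the 9319 identifiers tested were higher and 0.0215% lower, and 7 members, as 427 of the 9319 tested, had an unadjusted p under 0.05 (0 members in DESeq2). RTS0064864 had an interaction of -0.71 on the log2 scale (SE 0.22, edgeR adjusted p = 0.809) and RTS0074750 one of 0.56 (SE 0.22, edgeR adjusted p = 0.99). With each region as a library and the region as a block, which keeps both segments of a region paired but takes regions of 1 animal as replicates, RTS0076045, named after its values were seen, passed at -0.80 (SE 0.18, edgeR adjusted p = 0.0152). Over the 9319 identifiers tested in that fit, 4 were higher and 7 lower. The higher count in CD45- than in CD68+ segments is therefore not a shown difference between segment types.

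**Figure D4:**
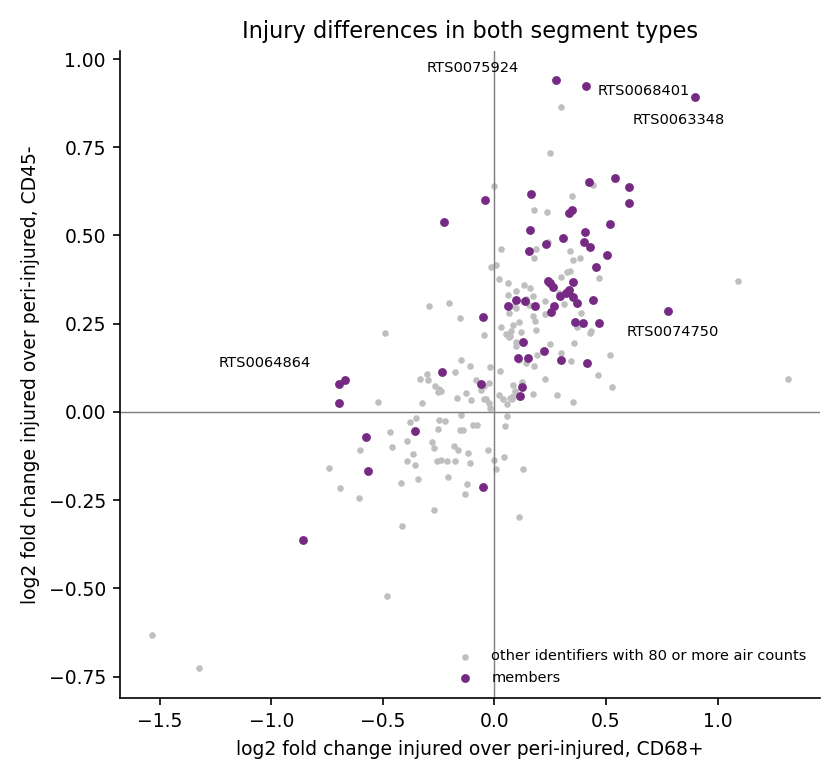
Log2 fold change of injured over peri-injured regions in CD68+ segments (horizontal) and CD45- segments (vertical), 1 point per identifier. Purple points are the members and grey points the comparison identifiers, and both axes share no library. Most members lie to the upper right, while RTS0064864 at -0.69 in CD68+ lies to the left.

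Sections were set against each other with log2 CPM on scaled library sizes, and a member was counted where the means differed by at least 1 and no region overlapped. Between the young mutant and the wild type section after ozone, 1 member was higher in each segment type, RTS0063348, and 0 were lower. Of 392 identifiers kept in CD68+ segments 1.28% were higher and 3.06% lower, and in CD45- segments 0.679% of 2502 were higher and 1.2% lower. RTS0063348 held 2279, 2869 and 4820 CPM in injured and 708.0, 803.9 and 1297 CPM in peri-injured CD68+ segments of the young mutant section. The wild type ozone section held 50.7, 140.2, 157.9 and 249.9 CPM in injured and 122.4, 136.5, 145.9 and 242.7 CPM in peri-injured CD68+ segments, from 3 to 17 counts each. The difference of means was 3.40 on the log2 scale in CD68+ and 2.58 in CD45- segments, and 2.81 and 1.88 with a prior count of 10. The old mutant section had a median between theirs, with 488.1 to 1594 CPM and a median of 622.6 in CD68+ segments. In air CD68+ segments, whose values helped choose this member, the level was 360.9, 361.8, 412.3 and 500.2 CPM. Those values lie above every wild type ozone CD68+ segment, a description from which nothing is read. Within the young mutant section, injured regions exceeded every peri-injured region in both segment types. Over the 3 sections the injury difference was 0.89 in CD45- segments (SE 0.21, edgeR adjusted p = 0.0445) and 0.90 in CD68+ segments (SE 0.26, edgeR adjusted p = 0.141). It passed in 8 of 29 alternatives in CD45- and 4 of 29 in CD68+ segments.

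Over all 62 members the median difference between the young sections was -0.02 in CD68+ and 0.08 in CD45- segments, against -0.02 and 0.01 for all identifiers kept. Between the old and the young mutant section 0 members passed the fold rule in either segment type, where 0.0% of 287 identifiers kept in CD68+ and 0.147% of 1356 kept in CD45- segments were higher, and 1.39% and 0.0% lower. The median difference was 0.08 in CD68+ and 0.18 in CD45- segments, against 0.04 and -0.01 for all identifiers kept, and 48 of 62 members were higher in old CD45- segments. With factors over all identifiers the member medians were -0.33 and -0.04 for young mutant against wild type, where those of all identifiers were -0.33 and -0.09, so the sign in CD45- segments turned. For old against young mutant they were 0.32 and 0.29, beside 0.28 and 0.09 for all identifiers.

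Ozone against air in wild type sections uses the air values that chose the members, so these numbers are a description from which nothing is read. In CD68+ segments 2 members passed as higher and 1 as lower, where 4.19% of 477 identifiers were higher and 1.68% lower. RTS0080788 held 1468 to 3284 CPM after ozone with a median of 2533, against 825.0, 844.2, 905.2 and 1237 CPM in air. RTS0061516 held 2305 to 3378 CPM with a median of 2902, against 1057, 1120, 1120 and 1443 CPM in air. RTS0063348 was the lower one, at -1.45 on the log2 scale. In CD45- segments 3 members passed as higher and 0 as lower, where 1.76% of 1819 identifiers were higher and 1.32% lower. RTS0068401 held 278.8 to 834.7 CPM after ozone, against 91.7, 109.8, 189.8 and 238.1 CPM in air, and RTS0075705 held 415.7 to 615.2 CPM, against 61.1, 189.8, 311.0 and 317.5 CPM. The third was RTS0075733, named after its values were seen. The air CD45- values of these 2 named members rest on 2 to 17 counts per region. The median member difference was -0.10 in CD68+ and 0.35 in CD45- segments, against 0.09 and -0.01 for all identifiers kept. Scaling factors taken over all identifiers, which were computed first and became the alternative after their shift was seen, moved these medians of all identifiers to 0.39 and 0.42 and those of the members to 0.21 and 0.83, so the sign of the CD68+ median turned while it stayed below that of all identifiers.

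**Figure D5:**
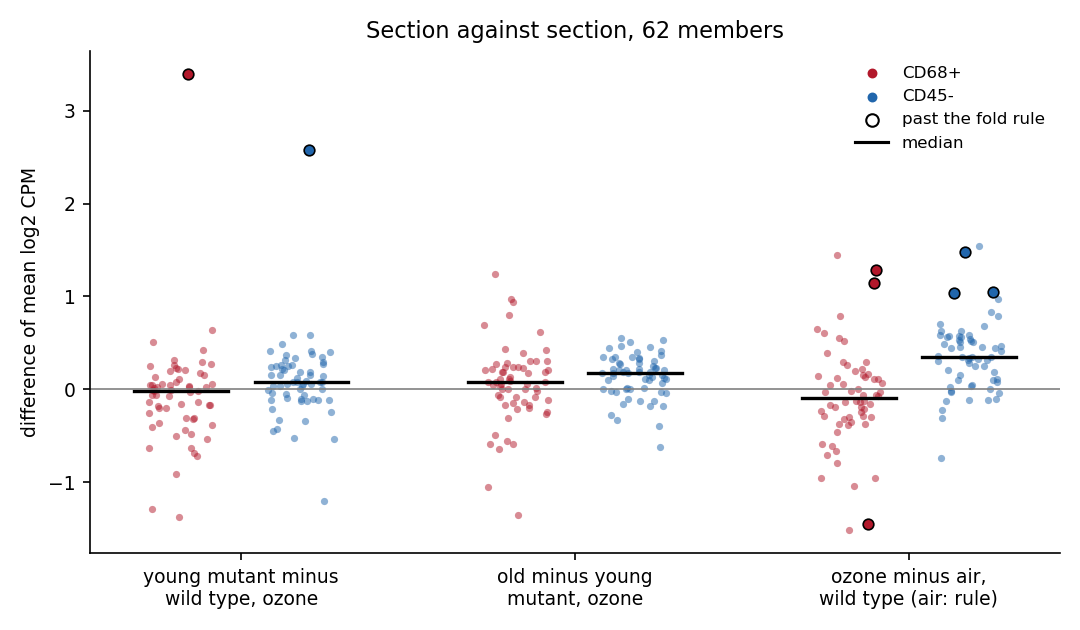
Difference of mean log2 CPM between sections for each of the 62 members, with CD68+ segments in red, CD45- segments in blue and medians as black lines. Outlined points passed the fold rule. RTS0063348 lies at 3.40 and 2.58 for young mutant against wild type, no member is outlined for old against young mutant, and the ozone against air values include the air data that chose the members.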

How the data were processed

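The authors deposited deduplicated counts of each probe barcode in each segment, made with the GeoMx NGS Pipeline 2.3.4, per the file headers. Unlisted barcodes were set to 0. Areas are in the authors' unit, not given in the sources used here, and used only as shares. Counts were summed per section and segment type (6 sums), for each region type and section in a segment type (6 sums) or both (12 sums). They were filtered (filterByExpr, minimum count 10), given TMM factors and tested in edgeR 4.0.16 (glmQLFTest, two-sided, Benjamini-Hochberg over all identifiers tested, section as block) in R 4.3.3, after tests on simulated data. DESeq2 1.42.0 was an alternative. Log2 CPM between sections used a prior count of 2 and factors from filtered identifiers. Factors over all identifiers were replaced after their values were seen, because they shifted the median of all identifiers. Members and lists were chosen with earlier results of these data known. Named members are the 2 highest and 2 lowest that passed per comparison, the 2 with most counts and those at the floor. Both segments of a region share an animal and a number, which pairs them. Their deviations had a median correlation of 0.09, against -0.03 between other regions, over 226 identifiers. No P-value covers spread between animals of 1 condition. No 2 segments held identical counts. The 2 no template controls were not used.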

Additional observations from a re-analysis of the deposited data

Results flagged for a closer look

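Regions that stood apart from the other 3 of their group were looked for in 72 groups of 4 regions, for the summed share and the named members. Chance flags about 1 in 20 groups, and 6 were found. RTS0064864 held 2198 CPM (154 counts) in CD68+ of region 5, peri-injured, in the ozone-exposed wild type lung, against 1042 to 1224 CPM in the others of that group. RTS0075705 held 768.8 CPM in the CD68+ segment of injured region 3, against 522.7 to 552.6 CPM, and 615.2 CPM in the CD45- segment of injured region 2, against 457.4 to 478.5 CPM, both in the same lung. In air region 11 the CD68+ segment held 1443 CPM of RTS0061516, against 1057 to 1120 CPM, and 907.1 CPM of RTS0075924 from 22 counts, against 464.1 to 476.4 CPM. RTS0080807 was low in the CD45- segment of air region 12, at 1223 CPM against 1640 to 1687 CPM.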

How the results depend on the processing

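The 12 members higher in CD68+ than CD45- segments were 4 without segments under 50000 counts and 6 in injured regions only. Of the 24 members with 160 or more air counts, 7 passed in the main fit, which is a smaller set and not another fit. Leaving out a region or section gave 1 to 15, with 1 without the wild type ozone section. Higher calls over all identifiers were 119 of 16256 without segments under 50000 counts and 171 of 9349 in injured regions only. They were 24 of 16390 without the wild type ozone section. With regions as libraries and the region as a replicate block, which pairs both segments, 14 were higher and 2 lower, against 0 lower in the section sums. Over the 17651 identifiers tested, 205 were higher and 616 lower in that fit. With the same block 1 member passed the interaction, where 4 of the 9319 identifiers tested were higher and 7 lower. Leaving out a region or section gave 0 to 0 members. Of the injury calls in CD68+ segments, 0 were left by DESeq2 and 5 were made with regions as libraries and section as block. Over the 3176 identifiers tested DESeq2 had 3 higher and 0 lower, and the region fit 18 higher and 10 lower. Leaving out a region or section gave 0 to 5, with 0 without regions 7, 8, 9, 10 or 12 of the old mutant, 2, 4, 5, 6, 9 or 15 of the wild type or 2, 3 or 4 of the young mutant section. The 8 injury calls in CD45- segments were 3 with upper quartile factors, 0 with DESeq2, and 2 to 16 when a region or section was left out. Higher calls over all identifiers then ran from 10 to 105. Of the 24 members with 160 or more air counts, 3 passed in the main fit. Over the 16703 identifiers tested, 15 were higher with upper quartile factors and 1 with DESeq2.

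Members past the fold rule for ozone against air numbered 5 in CD68+ and 13 in CD45- segments with factors over all identifiers, an alternative chosen after seeing the data, and 1 in CD45- segments with a prior count of 10 and 0 with the higher air floor. Young mutant against wild type gave 2 in CD68+ segments with factors over all identifiers. With the higher floor the 0 in both segment types was likewise fixed. RTS0063348, the only member that had passed, had 93 air counts. Old against young mutant gave 2 in CD68+ segments in peri-injured regions only. Leaving out a region gave 3 to 6 and 2 to 5 for ozone against air in CD68+ and CD45- segments, 1 to 2 in both for young mutant against wild type, and 0 to 1 and 0 to 0 for old against young mutant. No share over all identifiers is given under these settings, so these counts are not read as a result about the members.

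With 160 or more air counts the summed share was 3.53%, 3.03%, 2.89% and 2.65% in CD68+ and 2.15%, 2.09%, 2.49% and 1.43% in CD45- segments of the wild type ozone, young mutant, old mutant and air sections. Without the 2 members with most counts it was 4.21%, 3.93%, 3.95% and 3.74% in CD68+ segments, and 2.88% in wild type ozone and 1.93% in air CD45- segments. The cause of these changes was not tested. CD68+ segments are the shallower, and 15 of 24 held under 50000 counts. Each condition is 1 animal, so spread between animals is not known.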

Other observations

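One member owes its place to a single segment. RTS0076944, singled out after its values were seen, had 113 of its 126 air counts, 89.7%, in the CD68+ segment of air region 10, at 2692 CPM. The CD68+ segments of the other air regions held 1, 1 and 8 counts, and of the 4 CD45- segments 3 held 0 counts and 1 held 3. It is the highest air point in the plot of segment differences, at 5.22 on the log2 scale. In the ozone sections its 125 counts were spread over the segments, with at most 21 in any of them. No other member had more than 50% of its air counts in 1 segment, and the median over the members was 21.8%.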
